A study of Homo sapiens with 12 samples.

Results

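Untreated DLD1 cells were compared with untreated SW480 cells across all genes, using 6 of the 12 RNA sequencing libraries of the series. The members are the 3 control libraries of DLD1 and the 3 control libraries labelled SW480, chosen by their labels and not by any measured value. DLD1 and SW480 are established human colorectal cancer cell lines, each grown as 1 line, and the study was designed to measure their response to lactate. The 6 libraries compared here come from cells to which no lactate was given, and the 6 libraries of lactate-treated cells serve only as a second look at the same line difference. Neither line carries an engineered allele or transgene in the labels. The labels describe the replicates as biological but do not say how the cultures were separated, so the p-values measure the spread between these libraries. Growth medium and passage are not given, and 1 line of each kind says nothing about other lines from the same tumour type.

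The lining of the colon is a sheet of polarised epithelial cells held together by E-cadherin, claudins and desmosomes, and its identity depends on transcription factors such as CDX2 and HNF4A. Most colorectal cancers carry mutations that keep Wnt signalling active, and Wnt targets such as AXIN2 and LGR5 mark the stem cells at the crypt base. Carcinoma cells can give up epithelial adhesion and take on vimentin, fibronectin and the repressors ZEB1, ZEB2 and SNAI2, a change known as epithelial to mesenchymal transition. Cell lines differ in how far they keep each of these programmes.

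The total of assigned reads ran from 12302311 to 20150229 per library. DLD1 controls 2 and 3 stood apart from the other controls. Each library was set against the mean of its group's remaining pair over 11988 genes. The log2 differences had a standard deviation (SD) of 0.533 in DLD1 control 2 and 0.44 in DLD1 control 3, and between 0.212 and 0.234 in the other 4 libraries. In these 2 libraries the difference followed transcript GC content, with Spearman's rho across genes of -0.79 and 0.83, where genes are not independent replicates. The line difference itself had a rho of 0.04 with GC content over 14700 genes, and 0.14 without DLD1 control 2. Pearson's r of log2 levels was at least 0.976 among the DLD1 libraries, at least 0.99 among those labelled SW480, and 0.684 to 0.706 between the lines.

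The labels were checked against 14 genes that mark colonic epithelium or epithelium in general. Of these, 10 were at 1 CPM (a gene's counts scaled to a common library total) or more in every DLD1 library and 5 in every library labelled SW480, where 3 of the 14 had no count at all. EPCAM, a surface protein of nearly all carcinoma cells, stood at 690, 716 and 697 CPM in replicates 1 to 3 of DLD1 and at 0.772, 1.14 and 0.983 CPM in the libraries labelled SW480. The groups did not overlap (log2 difference 9.46, SE 0.19, adjusted p = 1.45e-09). The simple-epithelium keratins KRT8 and KRT18 were present in every library of both lines. In DLD1, 4 of the 14 markers were low in their turn, among them the differentiation keratin KRT20 at 0.893, 0.670 and 0.885 CPM and the colonic lectin LGALS4 at 0, 0 and 0.0521 CPM. The data therefore go against a plain colonic epithelial label for these 3 libraries. Whether they come from SW480 cells was not tested here, and they are called the libraries labelled SW480, or SW480-labelled libraries, throughout.

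**Figure D1:**
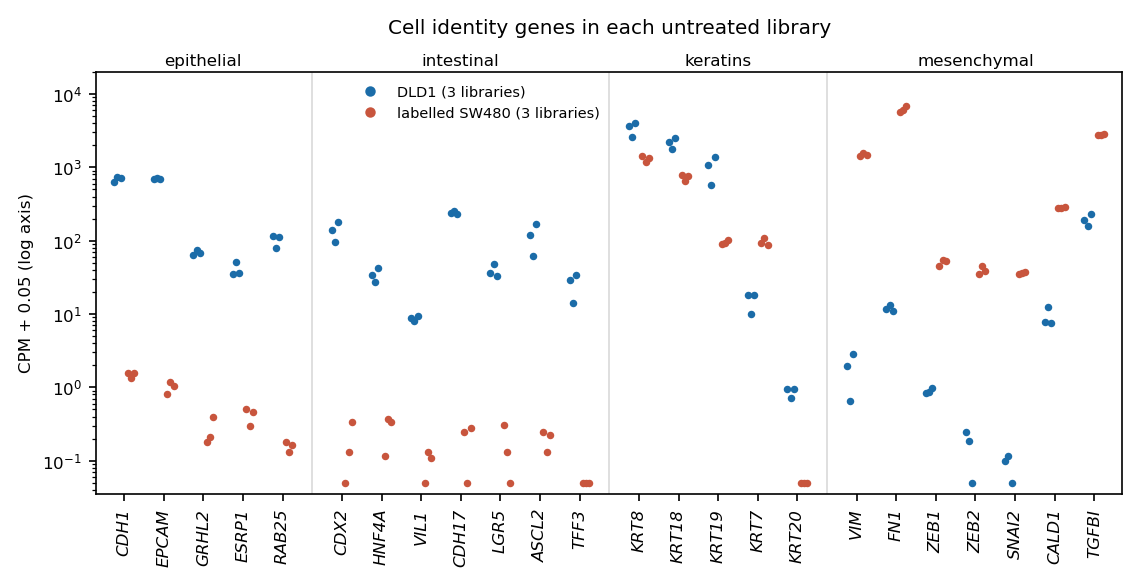
CPM of cell identity genes in each of the 6 untreated libraries, with 0.05 added so that a count of 0 can be drawn on the log axis; blue points are the 3 DLD1 libraries and red points the 3 libraries labelled SW480. The genes drawn were chosen from the lists, and members that go the other way, such as SPARC, TGFB1I1, KLF4 and CA2, are not drawn. The epithelial and intestinal genes drawn sit near the bottom of the axis in the red libraries. The mesenchymal genes drawn sit high there, and KRT8 and KRT18 are high in both.

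Most of the measured transcriptome differed between the lines. Of 16368 genes tested, 10642 passed an adjusted p of 0.05 in edgeR's quasi-likelihood test, which is 65.0% of them, and such genes are named called below. Higher in DLD1 were 5169 genes (31.6%), and 5473 were higher in the SW480-labelled libraries (33.4%). At least 2-fold differences made up 6800 of the calls (41.5% of genes tested), 2985 toward DLD1 and 3815 toward the other line. Differences of at least 32-fold were called for 534 and 1192 genes. In 11650 genes (71.2%) the 3 libraries of one line did not overlap the 3 of the other. The same held for 201 of the 204 genes named here and called. Many of these were picked for a large difference, so where lack of overlap is given below it is a description. Given the shares of 31.6% and 33.4%, a list in which about 1 member in 3 is higher in each line is near the background. A list member read in only one line passed the filter on low counts through that line and had to differ, so counts of lists with untested members describe the tested ones. Values below are CPM per library, log2 differences are DLD1 minus the SW480-labelled libraries, SE is the standard error, and CPM is not scaled by gene length, so levels are compared between libraries and not between genes.

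Several genes were read in one line and had no more than 3 counts in any library of the other. With the line that has them averaging 10 CPM or more, 93 such genes were present in DLD1 and 288 in the SW480-labelled libraries. The corresponding genes also stayed at no more than 3 counts in the matching lactate-treated libraries in 72 and 249 cases. Against a floor of 3 counts per library, which is 0.203 CPM on average in the SW480-labelled libraries, TMPRSS2, a membrane serine protease of epithelial cells, was at least 289-fold higher in DLD1. Its levels were 63.3, 49.4 and 63.6 CPM in DLD1, and no read was counted for it in the 3 libraries of the other line. Among genes of the opposite kind without a count in DLD1, COL8A1, a short-chain collagen, had the highest level. It was at 159, 172 and 170 CPM in the SW480-labelled libraries, a difference of at least 991-fold against the DLD1 floor of 0.169 CPM.

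Other genes of this kind in the SW480-labelled libraries belong to several tissues. The mesoderm transcription factor T (now TBXT) was at 333, 334 and 345 CPM there and at 0, 0.201 and 0 CPM in DLD1, a ratio of 6109.5-fold (95% exact interval 2090.2 to 29629). BNIP3, a hypoxia-induced mitophagy receptor, was at 354, 416 and 402 CPM against 0.0496, 0.134 and 0.104 CPM (log2 difference -11.98, SE 0.25, adjusted p = 1.45e-09). The nicotinic receptor subunit CHRNA9 was at 163, 204 and 176 CPM against 0.0496, 0 and 0.0521 CPM. These 3 genes, and TFPI2 and SPOCK1 below, were picked for their low counts in DLD1 and their level in the other line. HOOK1, TMEM200A and LAD1 below were picked in the same way with the lines exchanged. That none overlapped between the lines, and the p given for BNIP3, follow from that choice, so the values are a description. TFPI2, a protease inhibitor of the extracellular matrix, and SPOCK1, a matrix proteoglycan, had log2 differences of -11.79 (SE 0.28, or -12.58 without DLD1 control 2) and -11.29 (SE 0.32, or -10.68 without DLD1 control 1 and -12.45 without DLD1 control 3). The interleukin 13 decoy receptor IL13RA2, the GTPase RHOH, the protease TMPRSS15, the vascular protein EDIL3, the gap junction protein GJA5, the cadherin CDH10 and the sodium channel SCN2A had no count in any DLD1 library, and were at least 630-fold, at least 525-fold, at least 519-fold, at least 415-fold, at least 386-fold, at least 368-fold and at least 289-fold higher in the other line. In DLD1 the corresponding set was led by HOOK1, a microtubule linker, at 151, 230 and 121 CPM against 0.193, 0.0813 and 0.174 CPM. TMEM200A followed at 145, 193 and 140 CPM against 0.129, 0.0813 and 0.174 CPM, and LAD1, a basement membrane anchoring protein, at 123, 106 and 154 CPM against 0.0643, 0.244 and 0.116 CPM.

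Every one of the 22 tested genes for epithelial adhesion and polarity was higher in DLD1. The median log2 difference of the list was 7.88, against -0.02 over all genes tested. CDH1, which encodes E-cadherin, the adhesion protein of epithelial junctions, was at 637, 736 and 712 CPM in DLD1 and 1.54, 1.30 and 1.5 CPM in the SW480-labelled libraries (log2 difference 8.84, SE 0.18, adjusted p = 1.45e-09). CDH17, the liver-intestine cadherin, was at 240, 253 and 229 CPM against 0.193, 0 and 0.231 CPM (log2 difference 10.49, SE 0.31, adjusted p = 6.00e-09). All 6 libraries separated by line in both genes. The serine protease inhibitor SPINT2, at 708, 426 and 784 CPM against 0.579, 0.406 and 0.752 CPM, and its target protease ST14, at 414 ± 119 against 0.554 ± 0.2 CPM, moved the same way. So did the transcription factors that maintain epithelium, GRHL2 (68.8 ± 5.08 against 0.213 ± 0.118 CPM), ELF3 (278 ± 47.7 against 3.96 ± 0.0960 CPM) and OVOL1, whose ratio was 1413-fold (95% exact interval 253 to 55827). The splicing factors ESRP1 (40.9 ± 9.29 against 0.366 ± 0.109 CPM) and ESRP2 (130 ± 16 against 0.860 ± 0.0444 CPM) select epithelial exon variants. PATJ, a scaffold of the Crumbs polarity complex, had the smallest difference, at 87.3 ± 16.9 against 49.9 ± 1.17 CPM.

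The factors of the ZEB and SNAI families bind a hexamer known as an E-box, CAGGTG or its reverse complement CACCTG, in the promoter of E-cadherin. The E-box letters were searched on both strands of the RefSeq promoter windows (GRCh38.p14), each 300 bases long, from 250 bases before to 50 bases after the start of transcription. Of the 22 list members, 6 have a window in the promoter table, with 7 windows in all. Among the members without a window are CDH1, CDH3, CDH17, EPCAM, ESRP1, ESRP2, GRHL2, LLGL2, MAL2, MARVELD3, OVOL1, OVOL2, PRSS8, SPINT2 and ST14. At least 1 match was found in 6 of the 7 windows, and in 19.0% of the 16887 windows of tested genes. Of the 7 windows, 4 had 2 or more matches, against 2.82% of the windows of tested genes. These 4 belong to different genes. The window of PATJ, with 3 matches, was among them although the level of PATJ differed least. The windows are shown for the 3 genes with several matches and a log2 difference above 3, with matches in capitals. CRB3 encodes the Crumbs polarity protein, RAB25 a small GTPase of epithelial recycling endosomes, and AP1M2 the epithelial clathrin adaptor. They lie at chr19:6464021-6464320 on the plus strand, chr1:156060910-156061209 on the plus strand and chr19:10587263-10587562 on the minus strand.
CRB3: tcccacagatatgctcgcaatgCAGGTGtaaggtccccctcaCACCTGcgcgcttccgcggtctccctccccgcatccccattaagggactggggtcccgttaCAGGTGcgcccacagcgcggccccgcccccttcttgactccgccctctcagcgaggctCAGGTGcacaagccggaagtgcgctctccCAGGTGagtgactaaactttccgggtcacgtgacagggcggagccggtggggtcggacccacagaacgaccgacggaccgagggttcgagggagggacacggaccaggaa
RAB25: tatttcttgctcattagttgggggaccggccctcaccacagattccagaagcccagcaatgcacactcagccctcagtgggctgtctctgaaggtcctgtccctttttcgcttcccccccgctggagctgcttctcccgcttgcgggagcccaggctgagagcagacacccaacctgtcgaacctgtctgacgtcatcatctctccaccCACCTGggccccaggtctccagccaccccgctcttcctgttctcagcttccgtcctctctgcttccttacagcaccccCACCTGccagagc
AP1M2: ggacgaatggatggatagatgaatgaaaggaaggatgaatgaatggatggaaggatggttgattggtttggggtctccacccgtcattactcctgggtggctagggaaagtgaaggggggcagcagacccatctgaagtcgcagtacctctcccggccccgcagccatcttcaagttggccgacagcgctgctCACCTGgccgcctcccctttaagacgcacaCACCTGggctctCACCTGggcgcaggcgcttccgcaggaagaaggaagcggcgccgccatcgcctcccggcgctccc
In CRB3 the 5 matches start 228, 208, 147, 89 and 60 bases before the start of transcription. AP1M2 has 3 matches, 57, 27 and 15 bases before it, and RAB25 has 1 match 41 bases before and 1 match 37 bases after it. CRB3 stood at 55.8, 36.8 and 67.3 CPM in DLD1 and 0.129, 0.163 and 0.463 CPM in the SW480-labelled libraries, RAB25 at 115, 79.2 and 111 against 0.129, 0.0813 and 0.116 CPM, and AP1M2 at 169, 122 and 181 against 15.4, 11.8 and 13.5 CPM. A match is a run of letters and no measured binding site.

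Mesenchymal genes and the repressors of epithelial identity lay on the other side. Of 21 tested, 16 were higher in the SW480-labelled libraries and 2 in DLD1, with a median log2 difference of -3.9. VIM, the mesenchymal intermediate filament vimentin, was at 1.89, 0.603 and 2.76 CPM in DLD1 and 1431, 1588 and 1477 CPM in the SW480-labelled libraries (log2 difference -9.74, SE 0.38, adjusted p = 2.63e-08). FN1, the matrix protein fibronectin, was at 11.5, 13.3 and 11.1 CPM against 5632, 6143 and 6845 CPM (log2 difference -9.07, SE 0.18, adjusted p = 1.45e-09). ZEB1, a repressor of CDH1, was at 0.794, 0.804 and 0.937 CPM against 45.3, 54.2 and 53.5 CPM (log2 difference -5.95, SE 0.19, adjusted p = 8.20e-09). In each of the 3 genes every SW480-labelled library was above every DLD1 library. ZEB2 had a log2 difference of -8.44 (SE 0.37, or -9.27 without DLD1 control 1 and -7.85 without DLD1 control 3), and SNAI2, with 2 reads in DLD1, a ratio of 992-fold (95% exact interval 274 to 8195). SNAI1 did not pass the test, at 2.38, 2.28 and 3.49 CPM against 3.54, 4.47 and 3.24 CPM (adjusted p = 0.117), although it passed without DLD1 control 3, where the log2 difference was -0.72. TWIST1 had no count in any of the 6 libraries. Not every mesenchymal gene was on that side: the 2 higher in DLD1 were SPARC (1.96 ± 0.667 against 0.841 ± 0.0516 CPM) and TGFB1I1 (4.17 ± 1.76 against 0.85 ± 0.127 CPM), and the neural cadherin CDH2 was too low to be tested in both lines (0.675 ± 0.0708 against 0.188 ± 0.104 CPM). Without the filter on low counts, 4 genes were called higher in DLD1.

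Some fibroblast and smooth muscle markers were on the same side. Of the 12 genes of that list, 7 averaged under 1 CPM in DLD1 and 5 in the SW480-labelled libraries. Of the 8 tested, 5 were higher in the SW480-labelled libraries (62.5%) and 0 in DLD1, against 33.4% and 31.6% of all genes. A member read only in the SW480-labelled libraries was tested through them, which fixed its direction. The list summed to 265 to 278 CPM in the SW480-labelled libraries and to 13.3 to 16.7 CPM in DLD1. COL3A1, a fibrillar collagen of connective tissue, was at 154, 133 and 140 CPM in the SW480-labelled libraries against 2.53, 3.42 and 3.12 CPM, and DCN, the matrix proteoglycan decorin, at 79.5, 87.6 and 76.6 CPM against 0.0993, 0.134 and 0.208 CPM. The smooth muscle myosin MYH11 was at or near 0 in both lines (0 ± 0 against 0.0193 ± 0.0334 CPM), and the fibroblast surface protein THY1 was below 0.1 CPM on average in both (0.0786 ± 0.0480 against 0.0643 ± 0.111 CPM). Among the 15 immune markers PTPRC, present on all leukocytes, was at 0 ± 0 against 0.0793 ± 0.0877 CPM, and CD68 accounted for most of their sum of 38.0 to 58.5 CPM in the SW480-labelled libraries, where it stood at 30.8, 50.2 and 37.8 CPM. CD68 shares 81.7% of its exon length with another annotated gene on the same strand. Neural markers summed to 225 to 248 CPM against 69.1 to 98.8 CPM, nearly all from MAP2 (20.7 ± 5.74 against 122 ± 6.38 CPM) and TUBB3 (60.7 ± 19.9 against 113 ± 5.94 CPM), while the neuronal nuclear protein RBFOX3 was at 0 ± 0 against 0.0678 ± 0.0121 CPM. Endothelial markers summed to at most 3.70 CPM in any library, hepatocyte markers to at most 18.2 CPM and squamous markers to at most 4.83 CPM. In bulk RNA, fewer cells of a type and less RNA per cell cannot be told apart, and the part of other cells in the line difference was not tested.

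Of 12 keratins tested, 4 were higher in DLD1 (33.3%) and 7 in the SW480-labelled libraries (58.3%), against 31.6% and 33.4% of all genes. KRT8 and KRT18, the filament pair of simple epithelium, were higher in DLD1, KRT8 at 3619, 2563 and 4041 CPM against 1409.6, 1194 and 1344 CPM (log2 difference 1.33, SE 0.17, adjusted p = 9.62e-05) and KRT18 at 2231, 1781 and 2499 CPM against 795, 658 and 762 CPM. KRT19, a keratin of ductal and intestinal cells, was at 1088, 579 and 1381 CPM against 91.4, 94.1 and 102 CPM (log2 difference 3.36, SE 0.28, adjusted p = 5.17e-06). In all 3 the groups were separate, though DLD1 control 2 was the lowest of its group in each. KRT7, a keratin of ductal epithelium that is usually low in colon, was higher in the SW480-labelled libraries at 93.9, 109 and 87.3 CPM against 18, 10 and 18.3 CPM. The stratified-epithelium keratin KRT6A followed at 67.2, 71.0 and 67.1 CPM against 0.149, 0.0670 and 0 CPM (log2 difference -9.76, SE 0.33, adjusted p = 1.26e-08, or -10.89 without DLD1 control 1), and KRT81 at 15.9, 18.6 and 16 CPM against 0.844, 0.670 and 0.417 CPM. KRT20 had no count in the SW480-labelled libraries, and was at least 4.01-fold higher in DLD1.

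Junction genes were mostly higher in DLD1. Of 18 tight junction genes tested, 14 were higher in DLD1 and 2 in the SW480-labelled libraries, and of 11 desmosome genes 10 and 1. CLDN4, a sealing claudin, was at 290, 163 and 369 CPM against 1.48, 1.14 and 1.04 CPM (log2 difference 7.76, SE 0.37, adjusted p = 9.13e-08), and CLDN2, which forms cation pores, at 34.2, 33.3 and 36.4 CPM against 0.0643, 0.163 and 0.116 CPM (log2 difference 8.15, SE 0.26, adjusted p = 8.05e-09). The groups were apart in both. CLDN3 varied most among the DLD1 libraries, from 5.43 CPM in control 2 to 25.2 CPM in control 3, with a log2 difference of 6.32 (SE 0.72, or 7 without SW480-labelled control 3). The junction scaffold TJP3 (60.6 ± 25.9 against 0.784 ± 0.308 CPM) was also higher in DLD1, while CLDN1 (15 ± 1.70 against 30.9 ± 0.444 CPM) and CLDN23 (3.73 ± 0.939 against 6.02 ± 0.679 CPM) were the 2 exceptions. CLDN12 did not pass, at 75.7 ± 14.9 against 79.7 ± 2.64 CPM, except without DLD1 control 2, where its log2 difference was -0.29. Of the desmosome genes, the p63 target PERP stood at 4235, 4952 and 4137 CPM against 412, 427 and 433 CPM (log2 difference 3.34, SE 0.13, adjusted p = 2.38e-08), the plaque protein DSP at 355, 464 and 387 CPM against 71.3, 79.1 and 81.9 CPM, and the cornified envelope protein PPL at 105, 95.2 and 143 CPM against 3.67, 5.12 and 4.57 CPM. The desmosomal cadherin DSC3 was the member higher in the SW480-labelled libraries (0.0777 ± 0.0695 against 1.30 ± 0.152 CPM).

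Intestinal transcription factors were higher in DLD1 in 15 of 19 cases and in the SW480-labelled libraries in 2, with a median log2 difference of 2.58. CDX2, the homeobox factor that specifies intestine, was at 139, 94.8 and 180 CPM in DLD1 and 0, 0.0813 and 0.289 CPM in the SW480-labelled libraries (log2 difference 9.90, SE 0.48, adjusted p = 9.75e-08, or 9.31 without SW480-labelled control 1 and 11.59 without SW480-labelled control 3). HNF4A, a nuclear receptor of enterocytes, was at 34.3, 27.6 and 42.8 CPM against 0.0643, 0.325 and 0.289 CPM (log2 difference 7.2, SE 0.35, adjusted p = 1.09e-07). Neither gene overlapped between the lines. ISX, an intestinal homeobox factor, had no count in the SW480-labelled libraries and was at least 44.0-fold higher in DLD1. The exceptions were KLF4 (38.8 ± 5.66 against 80.2 ± 6.78 CPM), a factor of differentiated surface cells, and NR5A2 (0.731 ± 0.0621 against 6.90 ± 1.42 CPM); without DLD1 control 3 a total of 4 factors were higher in the SW480-labelled libraries. CDX1 was absent or nearly so in both lines, at 0.0496, 0 and 0.104 CPM in DLD1.

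Many markers of mature intestinal cells were below 1 CPM on average: 20 of 31 enterocyte and brush border genes in DLD1 and 26 in the SW480-labelled libraries, and 15 and 21 of 26 goblet cell and mucin genes. In these lists a member read in only one line was tested through that line, which fixed its direction. Of the 31, 11 could be tested. Of these, 7 were higher in DLD1 (63.6%) and 1 in the SW480-labelled libraries (9.09%), against 31.6% and 33.4% of all genes. VIL1, the microvillus protein villin, was at 8.73, 7.97 and 9.32 CPM in DLD1 and 0, 0.0813 and 0.0578 CPM in the other line, a ratio of 197-fold (95% exact interval 54.2 to 1632), but 44.0% of its exon length overlaps USP37 on the opposite strand and the strand setting of the counts is not given. The sodium-glucose transporter SLC5A1 (log2 difference 5.72, SE 0.39, adjusted p = 1.00e-06) and the peptidase DPP4 (log2 difference 3.31, SE 0.22, adjusted p = 7.76e-07) were higher in DLD1. CA2, a carbonic anhydrase, was the exception, at 95.9, 91.0 and 88.0 CPM in the SW480-labelled libraries and 26.4, 25.7 and 25.4 CPM in DLD1. Of 12 tested goblet cell and mucin genes, 10 were higher in DLD1 (83.3%, against 31.6% of all genes). Of all 26, 9 had no count in any SW480-labelled library. Among the 10 were the trefoil peptides TFF3 at 29.1, 14.1 and 34.5 CPM and TFF1 at 12.3, 6.23 and 13.3 CPM. Both were without a count in the other line (at least 127-fold and at least 52.0-fold). The membrane mucin MUC13 was at 98.5, 98.0 and 91.2 CPM against 4.76, 5.36 and 4.74 CPM. MUC1, another membrane mucin, was higher in the SW480-labelled libraries (10.3 ± 3.14 against 58.4 ± 7.65 CPM), as was CREB3L1 (0.0827 ± 0.143 against 1.03 ± 0.307 CPM). The secreted mucin MUC2 was below 1 CPM on average in both lines (0.371 ± 0.0279 against 0.0678 ± 0.0121 CPM). Of 6 tested enteroendocrine genes, 3 were higher in the SW480-labelled libraries, the prohormone convertase PCSK1 with a ratio of 285-fold (95% exact interval 97.1 to 1386), the granin SCG2 at 28.9, 29 and 29.6 CPM against 0.596, 0.536 and 0.677 CPM, and PAX6. That count rose to 5 without DLD1 control 2, to 6 without the filter on low counts, and to 6 with all 12 libraries in 1 model.

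Wnt targets and intestinal stem cell genes were higher in DLD1 in 19 of 25 cases, with a median log2 difference of 3.70. AXIN2, a feedback inhibitor that Wnt signalling switches on, stood at 492, 483 and 533 CPM in DLD1 and 23.3, 17.1 and 22.5 CPM in the SW480-labelled libraries (log2 difference 4.53, SE 0.16, adjusted p = 1.80e-08). LGR5, the R-spondin receptor of crypt stem cells, was at 36.7, 48.8 and 33.1 CPM against 0.257, 0.0813 and 0 CPM (log2 difference 8.34, SE 0.43, adjusted p = 1.66e-07, or 9.85 without SW480-labelled control 1 and 7.69 without SW480-labelled control 3). ASCL2, a transcription factor of the same cells, was at 119, 61.7 and 171 CPM against 0.193, 0.0813 and 0.174 CPM (log2 difference 9.45, SE 0.54, adjusted p = 3.25e-07). The groups did not overlap in any of the 3. The ubiquitin ligase RNF43 (214 ± 20.7 against 2.74 ± 0.571 CPM), LEF1 (58.8 ± 4.77 against 1.76 ± 0.324 CPM), SOX9 (261 ± 30.6 against 17.5 ± 0.814 CPM) and MYB (54.8 ± 8.19 against 0.727 ± 0.0973 CPM) were also higher in DLD1. Reads for RNF43 may include those of an annotated gene that covers 57.6% of its exon length on the same strand. The 5 higher in the SW480-labelled libraries were CD44 (137 ± 13.4 against 272 ± 15.1 CPM), RGMB (14.4 ± 2.88 against 27.5 ± 0.606 CPM), LRIG1 (0.196 ± 0.0888 against 2.81 ± 0.653 CPM), BMI1 (1.66 ± 0.788 against 3.28 ± 0.227 CPM) and PTPRO, whose 1 count in DLD1 gives a ratio of 55.3-fold (95% exact interval 9.45 to 2232). The crypt gene OLFM4 was at or near 0 in both lines (0.0447 ± 0.0773 against 0.0485 ± 0.0429 CPM).

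Wnt ligands, receptors and secreted inhibitors leaned the other way, with 11 of 23 higher in the SW480-labelled libraries (47.8%, against 33.4% of all genes) and 6 in DLD1. DKK1, a secreted inhibitor of the Wnt co-receptors, was at 378, 414 and 374 CPM in the SW480-labelled libraries and 0.0496, 0.0670 and 0.208 CPM in DLD1 (log2 difference -11.73, SE 0.27, adjusted p = 2.03e-09, or -12.59 without DLD1 control 3). The receptor FZD10 was at 43.4, 47.6 and 45.4 CPM and had no count in DLD1 (at least 269-fold). FZD4 stood at 55.8, 74.5 and 73.7 CPM against 3.03, 4.35 and 2.60 CPM, and the ligand WNT5A at 4.48 ± 1.55 against 31.0 ± 2.59 CPM in the order DLD1, SW480-labelled. Higher in DLD1 were the ligand WNT10A (8.10 ± 3.24 against 0.515 ± 0.469 CPM), the DKK receptor KREMEN1 (91.2 ± 18.2 against 6.67 ± 0.538 CPM) and the receptor ROR1 (29.4 ± 3.91 against 5.62 ± 0.692 CPM). The receptor FZD6 did not pass, at 40.1 ± 6.82 against 46.4 ± 3.99 CPM, but had a log2 difference of -0.41 and passed without DLD1 control 2.

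**Figure D2:**
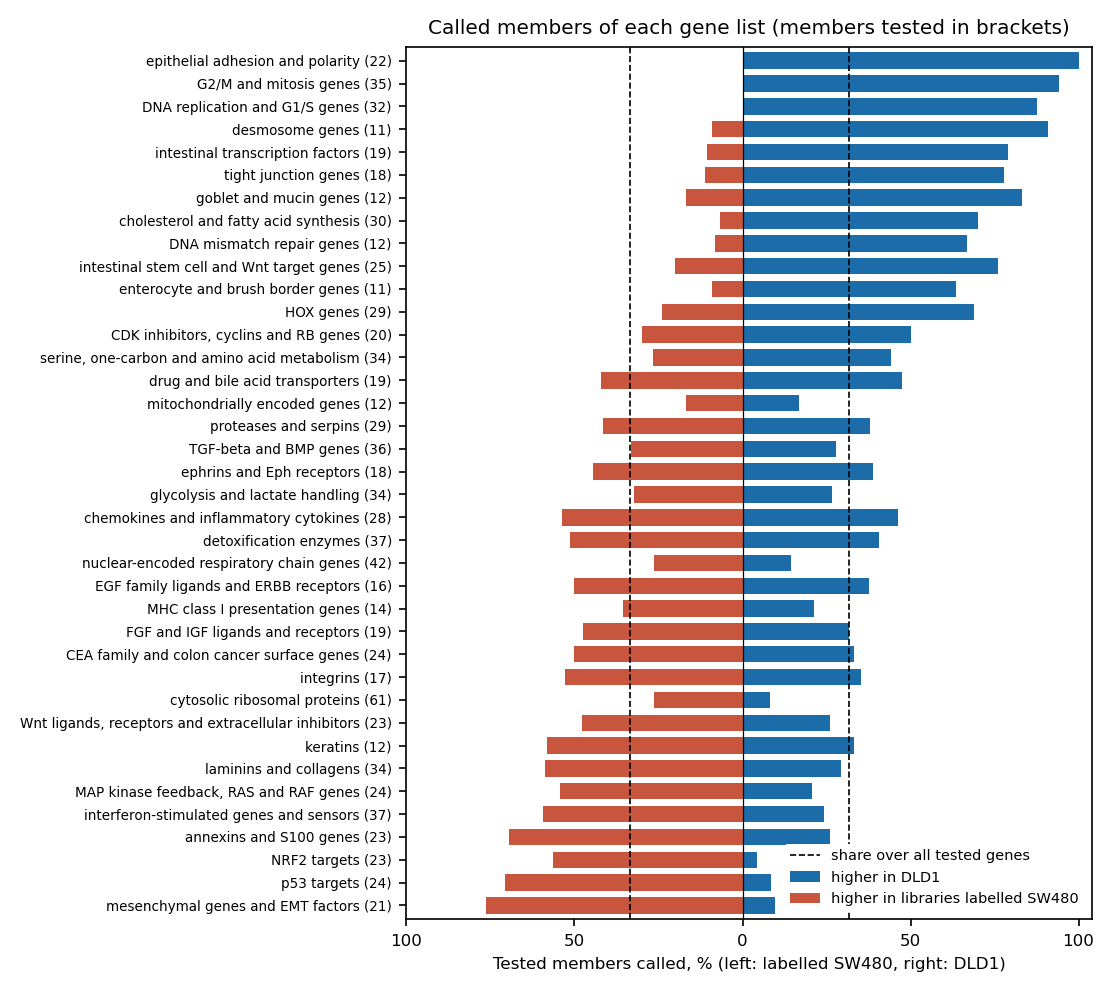
Share of tested members called higher in DLD1 (blue, to the right) and in the libraries labelled SW480 (red, to the left) for the 38 gene lists with at least 10 tested members; dashed lines mark the shares over all tested genes, 31.6% and 33.4%. Epithelial adhesion, mitosis and replication genes have no member on the left, and mesenchymal genes and p53 targets have 16 of 21 and 17 of 24 members on the left and 2 each on the right.

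The HOX genes, which record the position of a cell along the body axis, differed by cluster. Of 29 tested, 20 were higher in DLD1 and 7 in the SW480-labelled libraries. In the A and B clusters every tested gene except HOXA2 was higher in DLD1. HOXB3 was at 440, 562 and 452 CPM in DLD1 and 6.30, 8.21 and 7.64 CPM in the SW480-labelled libraries (log2 difference 5.99, SE 0.19, adjusted p = 8.09e-09), and HOXB4 at 22.8, 25.5 and 19.4 CPM against 0.450, 0.163 and 0.231 CPM (log2 difference 6.21, SE 0.30, adjusted p = 9.54e-08). HOXA13, a factor of the hindgut, was at 66.9 ± 13.2 against 7.79 ± 1.78 CPM. HOXA2 did not pass, at 2.59 ± 0.408 against 2.43 ± 0.374 CPM. In the C cluster the 4 tested genes were all higher in the SW480-labelled libraries: HOXC13 at 14.3, 16.2 and 14.7 CPM there, with 1 count in DLD1 and a ratio of 812-fold (95% exact interval 145 to 32113), HOXC8 with a log2 difference of -5.67 (SE 0.51, or -6.75 without DLD1 control 2 and -5.07 without DLD1 control 3), HOXC6 (1.83 ± 0.971 against 5.57 ± 1.27 CPM), and HOXC9 with a ratio of 100-fold (95% exact interval 27.4 to 836). The D cluster was mixed, with HOXD8 (0.518 ± 0.199 against 7.71 ± 0.474 CPM), HOXD11 (1.73 ± 0.353 against 5.06 ± 1.21 CPM) and HOXD13 (0.564 ± 0.105 against 7.61 ± 0.761 CPM) higher in the SW480-labelled libraries, HOXD9 higher in DLD1 (2.31 ± 0.443 against 0.910 ± 0.184 CPM), and HOXD10 not passing (1.95 ± 0.344 against 2.99 ± 0.658 CPM).

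**Figure D3:**
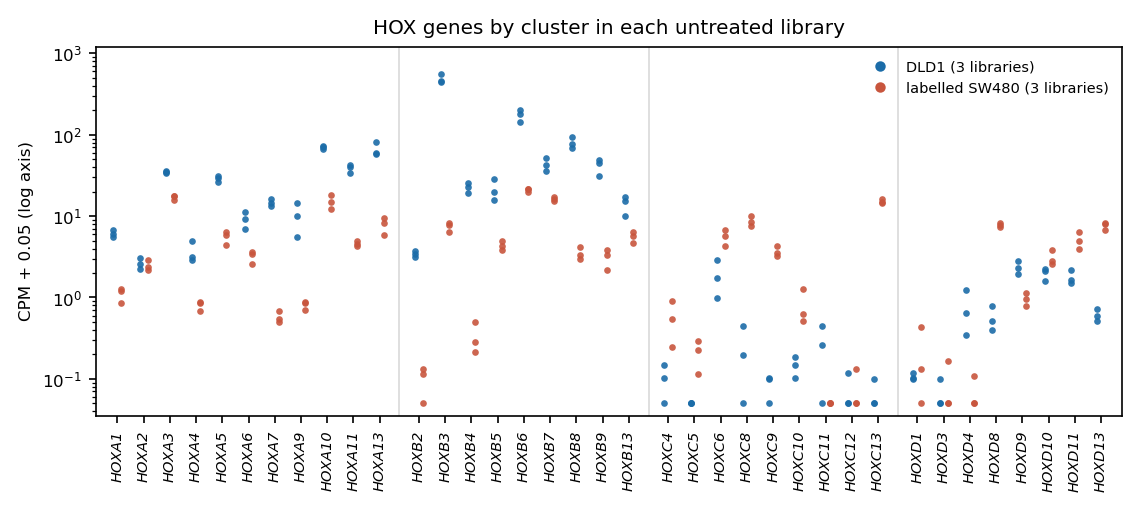
CPM of the 37 HOX genes of the table in each untreated library, ordered by cluster and number, with 0.05 added for the log axis. In the A and B clusters the blue DLD1 points lie above the red points of the libraries labelled SW480 for all tested genes except HOXA2, and in the C cluster the tested genes lie the other way.

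Cancer-testis antigens are normally silent outside the germ line. All 25 such genes in the table averaged under 1 CPM in DLD1, and 21 did in the SW480-labelled libraries. The other 4 passed the filter on low counts through the SW480-labelled libraries alone, so that they are higher there was fixed by the filter and their values are a description. MAGEA1 was at 87.1, 82.3 and 79.8 CPM there and had no count in DLD1 (at least 492-fold). MAGEB2 was at 97.5, 101 and 94.6 CPM against 0, 0.201 and 0.0521 CPM (log2 difference -10.27, SE 0.35, adjusted p = 1.27e-08, or -9.66 without DLD1 control 1 and -11.59 without DLD1 control 2). MAGEA3 was at 11.1, 10.1 and 7.87 CPM against 0, 0 and 0.0521 CPM, a ratio of 521-fold (95% exact interval 93.0 to 20617), and PRAME, with no count in DLD1, was at least 26.0-fold higher. MAGEA3 has near-identical copies, and how reads shared between copies were counted is not given. The list summed to at most 0.268 CPM in any DLD1 library and to 184 to 202 CPM in the others.

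Of 16 EGF family genes, 6 were higher in DLD1 (37.5%) and 8 in the SW480-labelled libraries (50%), against 31.6% and 33.4% of all genes. The ligand EREG was at 542, 999.8 and 466 CPM in DLD1 and 2.51, 3.17 and 4.11 CPM in the SW480-labelled libraries (log2 difference 7.63, SE 0.38, adjusted p = 1.28e-07). The ligand EPGN was the reverse, at 0.199, 0.469 and 0.312 CPM and 390, 384 and 383 CPM (log2 difference -10.27, SE 0.23, adjusted p = 1.69e-09), and so was the neuregulin NRG1, whose ratio was 1409-fold (95% exact interval 390 to 11641). AREG, another ligand of the EGF receptor, did not pass, at 130, 153 and 133 CPM against 98.4, 142 and 108 CPM (adjusted p = 0.261). Receptors differed as well: ERBB3 (170 ± 8.48 against 1.11 ± 0.194 CPM) and ERBB2 (165 ± 39.7 against 26.1 ± 1.24 CPM) were higher in DLD1, and EGFR (62.3 ± 15.8 against 99.3 ± 8.07 CPM) in the SW480-labelled libraries. Of 19 FGF and IGF genes, 9 were higher in the SW480-labelled libraries (47.4%) and 6 in DLD1 (31.6%). FGF2, a basic growth factor, stood at 310, 285 and 321 CPM against 7.89, 13.2 and 7.45 CPM (log2 difference -5.06, SE 0.24, adjusted p = 8.46e-08), the IGF-binding protein IGFBP4 at 743, 761 and 708 CPM against 15.6, 10.3 and 20.7 CPM (log2 difference -5.61, SE 0.25, adjusted p = 5.53e-08), and the insulin receptor substrate IRS2 at 119, 154 and 138 CPM against 4.17, 4.96 and 5.99 CPM. Its relative IRS1 did not pass, at 98.4 ± 7.38 against 103 ± 6.21 CPM.

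The MAP kinase list joins feedback genes, which oncogenic RAS and RAF switch on, with RAS and RAF genes themselves. Of 24 tested, 13 were higher in the SW480-labelled libraries (54.2%) and 5 in DLD1 (20.8%), against 33.4% and 31.6% of all genes. DUSP1, a phosphatase that inactivates MAP kinases, was at 801, 975 and 877 CPM in the SW480-labelled libraries and 6.00, 4.02 and 4.37 CPM in DLD1 (log2 difference -7.56, SE 0.21, adjusted p = 4.28e-09), and DUSP4 at 265, 341 and 315 CPM against 8.29, 7.03 and 11.1 CPM (log2 difference -5.16, SE 0.21, adjusted p = 3.03e-08). DUSP9 had no count in DLD1 and was at least 73.9-fold higher in the other line. DUSP6, the phosphatase specific for ERK, went the other way (156 ± 7.63 against 42.1 ± 4.26 CPM), as did SPRED2 (92.8 ± 11.4 against 53.9 ± 3.62 CPM) and PHLDA1 (465 ± 64.0 against 251 ± 45.6 CPM). The RAS gene NRAS was also higher in DLD1 (149 ± 38.5 against 94.0 ± 2.38 CPM). BRAF did not pass (59.7 ± 13 against 51.6 ± 0.526 CPM). Without SW480-labelled control 1, and likewise without control 2, the count higher in DLD1 was 3.

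Of 36 genes of TGF-beta and BMP signalling, 10 were higher in DLD1 and 12 in the SW480-labelled libraries, which is near the background in both directions. BMP4, a ligand that promotes differentiation of colonic cells, was at 605, 452 and 664 CPM in DLD1 and 0.450, 0.244 and 0.694 CPM in the SW480-labelled libraries (log2 difference 10.14, SE 0.30, adjusted p = 6.00e-09). The BMP antagonist NOG was the reverse, at 12, 15.6 and 14.6 CPM in the SW480-labelled libraries with 2 counts in DLD1, a ratio of 380-fold (95% exact interval 105 to 3145). The activin subunit INHBA was at 19.1, 24.0 and 21.5 CPM against 0.0496, 0.134 and 0.208 CPM (log2 difference -7.34, SE 0.31, adjusted p = 4.62e-08). The signal-transducing SMAD4 did not differ by the test (80.5 ± 12.6 against 62.9 ± 3.59 CPM), and neither did the receptor TGFBR2 (121 ± 10.4 against 97.7 ± 0.824 CPM). The inhibitory SMAD7 was higher in DLD1 (42.1 ± 5.93 against 5.84 ± 1.09 CPM). After removal of the trends along GC content and transcript length, 18 members were called higher in DLD1.

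Of 18 ephrin and Eph receptor genes, 7 were higher in DLD1 (38.9%, against 31.6% of all genes). The SW480-labelled libraries were higher in 8 (44.4%, against 33.4% of all genes). EPHA1 was at 30.8, 22.4 and 36.0 CPM in DLD1 and 0.257, 0.569 and 0.347 CPM in the SW480-labelled libraries (log2 difference 6.22, SE 0.31, adjusted p = 1.25e-07), and the receptors EPHB2 (87.0 ± 19.9 against 10.4 ± 1.13 CPM) and EPHB3 (31.4 ± 10.3 against 0.442 ± 0.187 CPM), which position cells along the crypt, were also higher in DLD1. EPHA3 was at 29.1, 32.6 and 31.6 CPM in the SW480-labelled libraries, a ratio of 1684-fold (95% exact interval 302 to 66555), and EPHA5 at 57.8, 51.5 and 64.3 CPM with no count in DLD1 (at least 343-fold).

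Basement membrane and matrix genes differed by component. Of 34 laminin and collagen genes, 20 were higher in the SW480-labelled libraries (58.8%) and 10 in DLD1 (29.4%). The type IV collagen chains COL4A5 and COL4A6 were at 296, 280 and 304 CPM and 307, 293 and 320 CPM in the SW480-labelled libraries and at 0.248, 0.335 and 0.104 CPM and 0.149, 0.201 and 0.260 CPM in DLD1. Their log2 differences were -10.37 (SE 0.25) and -10.56 (SE 0.21). COL12A1, a fibril-associated collagen, was at 333, 302 and 369 CPM against 0.199, 0.402 and 0.365 CPM (log2 difference -10.07, SE 0.24, adjusted p = 2.11e-09). Chains of laminin 332, the anchor of epithelial cells, were higher in DLD1, LAMA3 at 107 ± 8.50 against 6.58 ± 1.04 CPM and LAMB3 at 141 ± 37.8 against 23.1 ± 1.20 CPM. The integrin subunit ITGB4, which binds this laminin in hemidesmosomes, was at 124, 91.9 and 178 CPM in DLD1 and 1.35, 2.28 and 1.79 CPM in the SW480-labelled libraries (log2 difference 6.15, SE 0.31, adjusted p = 1.34e-07), and its partner ITGA6 at 370 ± 71.7 against 177 ± 11.8 CPM. The laminin chains LAMC1 (156 ± 7.87 against 557 ± 23.5 CPM) and LAMA5 (175 ± 62.2 against 476 ± 45.4 CPM) were higher in the SW480-labelled libraries, and LAMB2 did not pass (128 ± 37.0 against 156 ± 3.03 CPM). Collagen-binding ITGA2 (101 ± 37.7 against 522 ± 42.8 CPM), ITGA1 (4.18 ± 0.464 against 36.0 ± 3.89 CPM) and their partner ITGB1 (244 ± 55.7 against 630 ± 17.5 CPM) were higher there too, as was the fibronectin receptor chain ITGA5 (59.8 ± 13.6 against 289 ± 48.9 CPM). ITGA3 did not pass (187 ± 50.8 against 187 ± 6.05 CPM). Among the 17 integrins tested, 9 were higher in the SW480-labelled libraries (52.9%) and 6 in DLD1 (35.3%), against 33.4% and 31.6% of all genes.

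Proteases were not shifted as a list, with 11 of 29 members higher in DLD1 (37.9%) and 12 in the SW480-labelled libraries (41.4%). Over all genes these shares were 31.6% and 33.4%. The kallikrein KLK6 was at 75.9, 53.7 and 82.3 CPM in DLD1 and 0.193, 0.0813 and 0.174 CPM in the SW480-labelled libraries (log2 difference 8.72, SE 0.32, adjusted p = 1.84e-08). The membrane protease TMPRSS4 was at 22.7, 18 and 23.3 CPM in DLD1, with 3 counts in the other line and a ratio of 325-fold (95% exact interval 111 to 1577). The inhibitor SERPINE2 was higher in the SW480-labelled libraries (35.2 ± 0.750 against 585 ± 47.0 CPM), and so were TIMP1 (86.3 ± 17.1 against 466 ± 58.4 CPM) and the urokinase receptor PLAUR (20.5 ± 4.38 against 129 ± 19.1 CPM), whereas urokinase itself, PLAU, did not pass (13 ± 2.83 against 14.4 ± 0.992 CPM). Annexin and S100 genes leaned to the SW480-labelled libraries, with 16 of 23 higher there and 6 in DLD1. S100A4, linked to cell motility, was at 673, 600 and 601 CPM against 42.3, 27.9 and 38.6 CPM (log2 difference -4.15, SE 0.18, adjusted p = 5.23e-08). S100A14, an epithelial member, was at 360, 304 and 369 CPM in DLD1 and 0.257, 0.244 and 0.405 CPM in the other line (log2 difference 10.04, SE 0.23, adjusted p = 1.69e-09). ANXA2 did not pass (1424 ± 101 against 1646 ± 34.1 CPM, adjusted p = 0.0714), though it did under DESeq2 (adjusted p = 0.0225) and without DLD1 control 2 (0.0466).

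Surface genes followed in both directions. The tetraspanin CD9 was at 491, 352 and 490 CPM in DLD1 and 2.06, 3.9 and 3.12 CPM in the SW480-labelled libraries (log2 difference 7.16, SE 0.26, adjusted p = 1.84e-08), and the siderophore-binding protein LCN2 at 205, 128 and 214 CPM against 0.450, 0 and 0.174 CPM (log2 difference 9.60, SE 0.44, adjusted p = 7.09e-08, or 10.66 without SW480-labelled control 1). CD109, a co-receptor of TGF-beta, was at 268, 277 and 313 CPM in the SW480-labelled libraries and 1.09, 0.469 and 0.625 CPM in DLD1 (log2 difference -8.61, SE 0.25, adjusted p = 6.00e-09), and the neural adhesion molecule L1CAM had a log2 difference of -7.89 (SE 0.49, or -11.23 without DLD1 control 1). The complement regulator CD55 was higher in the SW480-labelled libraries (57.4 ± 3.12 against 2139 ± 329 CPM), while its functional neighbour CD59 did not pass (242 ± 12.7 against 261 ± 16 CPM). CEACAM5, the carcinoembryonic antigen, was low in DLD1 at 1.29, 0.670 and 2.03 CPM and had 1 count in the SW480-labelled libraries. In the list as a whole 12 of 24 were higher in the SW480-labelled libraries and 8 in DLD1.

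Interferon-stimulated genes were higher in the SW480-labelled libraries in 22 of 37 cases (59.5%) and in DLD1 in 9 (24.3%). These shares were 33.4% and 31.6% over all genes, and the median log2 difference of the list was -0.94. IFI44 was at 274, 253 and 255 CPM in the SW480-labelled libraries and 0.0496, 0 and 0.208 CPM in DLD1 (log2 difference -11.40, SE 0.33, adjusted p = 5.49e-09, or -12.85 without DLD1 control 3). OASL, a relative of the 2'-5' oligoadenylate synthetases, was at 432, 460 and 414 CPM against 3.18, 2.41 and 2.81 CPM (log2 difference -7.31, SE 0.17, adjusted p = 1.69e-09). IFI44L had 2 counts in DLD1, and its ratio was 3112-fold (95% exact interval 861 to 25704). The translation inhibitors IFIT1 (8.51 ± 1.64 against 337 ± 45.6 CPM), IFIT2 (6.10 ± 0.684 against 775 ± 79.4 CPM) and IFIT3 (8.23 ± 1.63 against 504 ± 45.4 CPM) were on the same side, as were RSAD2 (0.920 ± 0.232 against 108 ± 15.5 CPM) and the RNA sensor DDX58 (35.8 ± 6.94 against 110 ± 4.81 CPM). The 9 higher in DLD1 included the signalling factors STAT2 (61.9 ± 4.71 against 46.4 ± 1.16 CPM) and IRF3 (87.6 ± 20 against 49.9 ± 1.68 CPM), and also MX2 (6.98 ± 1.64 against 0.0893 ± 0.0361 CPM) and OAS3 (298 ± 10.3 against 98.4 ± 1.26 CPM). OAS1 did not pass (51.4 ± 3.67 against 56.4 ± 7.49 CPM).

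All 28 tested chemokine and cytokine genes were called, against 65.0% of all genes, 13 toward DLD1 and 15 toward the SW480-labelled libraries. IL6, a central inflammatory cytokine, was at 78.7, 103 and 76.8 CPM in the SW480-labelled libraries and 0.0993, 0 and 0.0521 CPM in DLD1, a ratio of 1528-fold (95% exact interval 523 to 7414). The neutrophil attractants of the CXC family split: CXCL1 (77.5 ± 4.73 against 644 ± 24.9 CPM) and CXCL8 (126 ± 52.6 against 552 ± 54.7 CPM) were higher in the SW480-labelled libraries, and CXCL5 (4397 ± 1022 against 368 ± 13.3 CPM) and CXCL3 (95.3 ± 3.38 against 22.2 ± 1.08 CPM) in DLD1. Interleukin 1 genes split as well, with IL1A (1.87 ± 0.7 against 80.0 ± 16.6 CPM) and IL1B (0.265 ± 0.119 against 20.4 ± 8.31 CPM) on the SW480-labelled side and their antagonist IL1RN on the DLD1 side, at a ratio of 304-fold (95% exact interval 54.3 to 12052). CX3CL1 was at 28.8, 21.8 and 37.3 CPM in DLD1 and 0.193, 0.244 and 0.0578 CPM in the other line (log2 difference 7.45, SE 0.38, adjusted p = 1.42e-07), and the mucosal chemokine CCL28 had no count in the SW480-labelled libraries (at least 67.5-fold). The alarmin IL33 was higher in DLD1 (62.9 ± 18.4 against 0.397 ± 0.213 CPM).

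Genes of MHC class I presentation could be read only in part. B2M, the invariant light chain, was at 123, 126 and 141 CPM in the SW480-labelled libraries and 34.7, 42.9 and 28.8 CPM in DLD1 (log2 difference -1.92, SE 0.17, adjusted p = 7.18e-06). The trimming peptidase ERAP2 was at 160, 203 and 140 CPM in DLD1 and 12.4, 13.7 and 13.5 CPM in the other line (log2 difference 3.62, SE 0.18, adjusted p = 1.15e-07). HLA-C was higher in DLD1 (78.6 ± 20.4 against 17.6 ± 1.78 CPM), while HLA-B (25.4 ± 9.34 against 28.6 ± 3.10 CPM) did not pass. These are polymorphic genes with shared sequence, so their counts are uncertain. TAP1, TAP2, PSMB8 and PSMB9, which most cells express, are listed at 0 in all 6 libraries. They lie on chromosome 6 between 29 and 33 Mb, where 88 of 141 protein-coding genes (62.4%) had no count in any of the 12 libraries, against 6.31% of 19012 over the genome. A 0 in this region is therefore read as no measurement.

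Detoxification enzymes were nearly all called, with 19 of 37 higher in the SW480-labelled libraries (51.4%) and 15 in DLD1 (40.5%). Over all genes these shares were 33.4% and 31.6%. The aldo-keto reductase AKR1C1, which acts on steroids and aldehydes, was at 864, 834 and 848 CPM in the SW480-labelled libraries and 0.695, 0.536 and 0.989 CPM in DLD1 (log2 difference -10.17, SE 0.21, adjusted p = 1.53e-09), and its close copy AKR1C2 had a log2 difference of -10.20 (SE 0.26, or -10.83 without DLD1 control 1). ALDH1A1, which makes retinoic acid, was at 319, 289 and 310 CPM against 0.447, 0.603 and 0.365 CPM (log2 difference -9.39, SE 0.20, adjusted p = 1.57e-09). Every library of one line was above every library of the other in these genes. ALDH2, which clears acetaldehyde, went the other way (185 ± 43.1 against 3.94 ± 1.03 CPM), and so did GSTP1 (568 ± 161 against 171 ± 9.74 CPM). GSTM1 was at 70.1, 60.9 and 62.9 CPM in the SW480-labelled libraries and 0, 0 and 0.208 CPM in DLD1, where only control 3 had counts, and the gene is known for a common deletion. Its log2 difference was -9.68 (SE 0.42, or -9.08 without DLD1 control 1 and -13.04 without DLD1 control 3). Of the efflux pumps, ABCC2 (3.34 ± 0.314 against 267 ± 24.3 CPM) and ABCG2 (3.56 ± 1.36 against 73.0 ± 10.5 CPM) were higher in the SW480-labelled libraries and ABCB1 (117 ± 17.1 against 7.08 ± 0.6 CPM) in DLD1. The uptake carrier SLCO1B3 was at 80.6, 109 and 73.1 CPM in DLD1 and 0.257, 0.975 and 0.231 CPM in the other line (log2 difference 7.54, SE 0.38, adjusted p = 1.35e-07, or 8.39 without SW480-labelled control 2), and 54.5% of its exon length overlaps another annotated gene on the same strand.

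Targets of NRF2, the factor of the oxidative stress response, were higher in the SW480-labelled libraries in 13 of 23 cases and in DLD1 in 1, with a median log2 difference of -0.76. The cystine transporter SLC7A11 was at 550, 432 and 534 CPM in the SW480-labelled libraries and at 47.1, 108 and 34.7 CPM in DLD1 (log2 difference -3.04, SE 0.38, adjusted p = 7.65e-05, or -3.68 without DLD1 control 2). Thioredoxin reductase TXNRD1 (552 ± 98.2 against 1252 ± 103 CPM) and the glutathione synthesis subunit GCLM (49.6 ± 11.6 against 113 ± 11.3 CPM) were higher there too. DLD1 control 2 was the outlying DLD1 library for SLC7A11. NFE2L2 and KEAP1, the genes of NRF2 and its inhibitor, did not pass (127 ± 21.7 against 103 ± 2.09 CPM, and 88.3 ± 21.4 against 62.7 ± 5.05 CPM), and neither did PGD (328 ± 53.4 against 315 ± 27.3 CPM). TALDO1 was the member higher in DLD1 (342 ± 86.0 against 197 ± 10.1 CPM), and 4 members were with the GC content and length trends removed or with all 12 libraries in 1 model.

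Of 34 tested genes of glycolysis and lactate handling, 9 were higher in DLD1 (26.5%), 11 in the SW480-labelled libraries (32.4%), and 14 did not pass. These shares are near those over all genes tested, 31.6% and 33.4%. GAPDH was at 7363, 5186 and 7684 CPM in DLD1 and 7060.4, 7573 and 6561 CPM in the SW480-labelled libraries (adjusted p = 0.544). The lactate dehydrogenases differed by small amounts in opposite directions. LDHA, which favours lactate production, was at 2739, 2545 and 2461 CPM in DLD1 and 3374, 3609 and 3535 CPM in the SW480-labelled libraries (log2 difference -0.49, SE 0.11, adjusted p = 0.00342), and LDHB at 1598, 1533 and 1402 CPM and 1036, 959 and 949 CPM (log2 difference 0.58, SE 0.12, adjusted p = 0.00158). Both separated the lines. Lactate carriers differed far more. The exporter SLC16A3 (MCT4) was at 147 ± 65.1 against 1303 ± 103 CPM, and the importer SLC16A7 (MCT2) at 114, 111 and 125 CPM in the SW480-labelled libraries with 3 counts in DLD1, a ratio of 2128-fold (95% exact interval 728 to 10320.5). The carriers' partner EMB was on the same side, at a ratio of 994-fold (95% exact interval 340 to 4825), while BSG, the partner of MCT4, did not pass (440 ± 130 against 486 ± 19.4 CPM). The carrier SLC16A1 (MCT1) was higher in DLD1 (6.54 ± 4.03 against 1.52 ± 0.0860 CPM). PDK4, a kinase that inhibits the pyruvate dehydrogenase complex, was at 719, 814 and 813 CPM in the SW480-labelled libraries against 5.01, 5.83 and 4.01 CPM (log2 difference -7.35, SE 0.19, adjusted p = 3.27e-09). The glucose transporter SLC2A3 was at 779, 1133 and 967 CPM there against 32.1, 35.5 and 32 CPM (log2 difference -4.90, SE 0.18, adjusted p = 1.91e-08). HCAR1, the lactate receptor, had no count in DLD1 and was near 0 in the SW480-labelled libraries (0 ± 0 against 0.0271 ± 0.0469 CPM).

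Sterol and fatty acid synthesis genes were higher in DLD1 in 21 of 30 cases and in the SW480-labelled libraries in 2, with a median log2 difference of 1.53. HMGCS1, an early enzyme of the cholesterol pathway, was at 761, 887 and 634 CPM in DLD1 and 99.9, 87.0 and 99.7 CPM in the SW480-labelled libraries (log2 difference 2.95, SE 0.16, adjusted p = 2.46e-07). INSIG1, a sensor that the sterol factors induce, was at 336, 340 and 355 CPM against 35.2, 35.8 and 35.8 CPM (log2 difference 3.23, SE 0.12, adjusted p = 1.77e-08). The 3 libraries of each line were apart in both. The transcription factor SREBF2, which drives this pathway, was at 245 ± 41.6 against 73.0 ± 2.49 CPM. The fatty acid synthase FASN did not pass, at 503, 408 and 841 CPM against 414, 360 and 459 CPM (adjusted p = 0.121), and did without DLD1 control 2 (adjusted p = 0.0265). The desaturase FADS1 was the largest exception, at 115, 116 and 121 CPM in the SW480-labelled libraries and 6.00, 6.70 and 5.94 CPM in DLD1 (log2 difference -4.28, SE 0.14, adjusted p = 9.59e-09), and PMVK the other (18.3 ± 4.25 against 34.9 ± 2.35 CPM).

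Serine, one-carbon and amino acid genes had 15 of 34 members higher in DLD1 (44.1%) and 9 in the SW480-labelled libraries (26.5%). Over all genes these shares were 31.6% and 33.4%. A pair of folate dehydrogenases was exchanged between the lines. Cytosolic ALDH1L1 was at 14.3, 10.7 and 16.7 CPM in DLD1 with 1 count in the other line, a ratio of 638-fold (95% exact interval 114 to 25221), and mitochondrial ALDH1L2 at 72.3, 75.8 and 77.0 CPM in the SW480-labelled libraries and 0.0993, 0.402 and 0.156 CPM in DLD1 (log2 difference -8.52, SE 0.29, adjusted p = 1.16e-08, or -9.18 without DLD1 control 2). The cytosolic transaminase BCAT1 was higher in the SW480-labelled libraries (0.504 ± 0.166 against 100 ± 3.36 CPM) and the mitochondrial BCAT2 in DLD1 (59.4 ± 15.7 against 33.2 ± 1.63 CPM). PHGDH, the first enzyme of serine synthesis, was at 177 ± 20.5 against 100 ± 2.93 CPM, and PSAT1, the next, did not pass (192 ± 35.1 against 199 ± 7.54 CPM).

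Cell division genes lay on the DLD1 side. All 33 called of 35 G2/M and mitosis genes were higher in DLD1, with a median log2 difference of 1.13, and so were all 28 called of 32 replication genes, with a median of 1.19. The mitotic activator CDC20 was at 231, 179 and 289 CPM in DLD1 and 70.3, 49.0 and 59.9 CPM in the SW480-labelled libraries (log2 difference 1.91, SE 0.20, adjusted p = 2.31e-05). Thymidylate synthase TYMS was at 300, 299 and 317 CPM against 64.7, 51.5 and 62.4 CPM (log2 difference 2.31, SE 0.13, adjusted p = 3.16e-07), with 39.1% of its exon length overlapping ENOSF1 on the opposite strand. E2F8, a late E2F factor, was at 32.3, 37.2 and 36.0 CPM against 4.44, 2.84 and 3.24 CPM (log2 difference 3.27, SE 0.19, adjusted p = 4.24e-07). No library of one line reached into the range of the other in these genes. Such lack of overlap was seen in 71.2% of all genes tested. The proliferation marker MKI67 was at 880 ± 119 against 297 ± 36.3 CPM. BIRC5 did not pass (156 ± 21.9 against 121 ± 12.2 CPM, adjusted p = 0.0830) but did without DLD1 control 2 (8.81e-04). How fast either culture grew is not given.

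Of 20 cyclin, CDK, CDK inhibitor and RB genes and related factors, 10 were higher in DLD1 (50%) and 6 in the SW480-labelled libraries (30.0%), against 31.6% and 33.4% of all genes. CDKN1A, the inhibitor p21, was at 325, 367 and 357 CPM in the SW480-labelled libraries and 45.1, 35.3 and 56.6 CPM in DLD1 (log2 difference -2.98, SE 0.18, adjusted p = 4.72e-07), and CDKN2B was at 8.29, 7.84 and 9.43 CPM in DLD1, a ratio of 193-fold (95% exact interval 53.2 to 1601). CDKN2A was too low to be tested in either line, at 0.627 ± 0.245 against 0.182 ± 0.0581 CPM. MYC was higher in the SW480-labelled libraries at 368, 415 and 397 CPM against 64.3, 61.0 and 76.8 CPM (log2 difference -2.59, SE 0.14, adjusted p = 1.54e-07), and its relative MYCL in DLD1 (18.3 ± 1.96 against 1.80 ± 0.502 CPM). CDK6 (53.8 ± 25.3 against 142 ± 9.84 CPM) and CCND3 (23.3 ± 5.51 against 87.1 ± 1.75 CPM) were higher in the SW480-labelled libraries, and CDK4 (232 ± 26.3 against 161 ± 12.5 CPM), CDK2 (101 ± 4.25 against 50.1 ± 1.04 CPM) and CCND1 (380 ± 37.2 against 217 ± 14 CPM) in DLD1. RB1 did not pass (103 ± 30.3 against 80.4 ± 3.69 CPM). It did without DLD1 control 3 (adjusted p = 0.0389) and with the GC content and length trends removed (adjusted p = 1.04e-04).

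p53 targets were higher in the SW480-labelled libraries in 17 of 24 cases, with a median log2 difference of -1.04, and in DLD1 in 2. MDM2, a ubiquitin ligase, was at 252, 258 and 273 CPM in the SW480-labelled libraries and 79.0, 113 and 72.5 CPM in DLD1 (log2 difference -1.61, SE 0.18, adjusted p = 3.26e-05), and PHLDA3, an inhibitor of AKT, at 72.2, 72.2 and 70.6 CPM against 2.03, 0.804 and 2.92 CPM (log2 difference -5.23, SE 0.32, adjusted p = 4.72e-07). The groups were separate in both. FAS (20.3 ± 3.87 against 40.8 ± 2.04 CPM), SESN2 (15.8 ± 2.07 against 46.4 ± 0.234 CPM) and PMAIP1 (56.2 ± 11.2 against 153 ± 15.3 CPM) were also on the SW480-labelled side. The stress cytokine GDF15 was higher in DLD1 (124 ± 45.6 against 47.8 ± 6.73 CPM), and BAX (55.5 ± 16.1 against 66.6 ± 3.85 CPM) and CCNG1 (247 ± 48.3 against 215 ± 2.54 CPM) did not pass. With the GC content and length trends removed, 4 were higher in DLD1 and 19 in the SW480-labelled libraries.

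Mismatch repair genes were higher in DLD1 in 8 of 12 cases, and MSH6 was the exception. MSH6, a subunit that recognises single mispairs and that is known to be mutated in DLD1, was at 27.7, 31.2 and 24.2 CPM in DLD1 and 152, 137 and 151 CPM in the SW480-labelled libraries (log2 difference -2.45, SE 0.15, adjusted p = 3.93e-07). The lines did not overlap. Among the genes shared with replication, PCNA was at 447 ± 19.7 against 133 ± 14.7 CPM. PMS2 (30.3 ± 5.57 against 38.7 ± 1.19 CPM), MSH3 (38.0 ± 6.59 against 29.9 ± 1.08 CPM) and EXO1 (65.1 ± 11.4 against 55.2 ± 4.14 CPM) did not pass.

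Counts of called ribosome and respiratory chain genes depended on single libraries. Of 61 cytosolic ribosomal protein genes, 5 were higher in DLD1 (8.20%, against 31.6% of all genes). The number higher in the SW480-labelled libraries was 16 (26.2%, against 33.4% of all genes). The 2 counts were 3 and 19, 17 and 21, and 3 and 22 without DLD1 control 1, 2 and 3. They were 3 and 12, 3 and 12, and 3 and 14 without SW480-labelled control 1, 2 and 3. RPLP0 did not pass (2118 ± 248 against 2404 ± 40.0 CPM). RPL9 differed most, at 18.7, 18.6 and 18.2 CPM against 361, 408 and 419 CPM (log2 difference -4.47, SE 0.14, adjusted p = 6.22e-09), but has near-identical copies whose reads may be counted elsewhere. Of 42 nuclear respiratory chain genes, 6 were higher in DLD1 and 11 in the SW480-labelled libraries, and they were 14 and 13 without DLD1 control 2 and 5 and 7 without SW480-labelled control 1. With the GC content and length trends removed, the counts were 17 and 18 for ribosomal proteins, 15 and 12 for respiratory chain genes, and 6 and 0 for the mitochondrially encoded genes. NDUFS1, a core subunit of complex I, was at 1.34, 8.78 and 10.4 CPM in DLD1 and passed at a log2 difference of 2.10, but did not without DLD1 control 2 (adjusted p = 0.205) and had the opposite sign in the lactate-treated libraries. Of 12 mitochondrially encoded genes, 2 were higher in each line. ND1 was at 2624, 2389.6 and 2913 CPM in DLD1 and 1824, 1581 and 1721 CPM in the SW480-labelled libraries (log2 difference 0.58, SE 0.12, adjusted p = 0.00215). The calls of ND2, ND6 and ATP8, at log2 differences of 0.37, -0.60 and -0.91, were lost without SW480-labelled control 2, at 0.32, -0.61 and -0.85 (adjusted p = 0.0797, 0.0548 and 0.0767). ND2 was also lost without SW480-labelled control 3 (0.37, adjusted p = 0.0650) and with the replicate block (0.37, adjusted p = 0.0522). ND6 was lost without DLD1 control 1 (-0.62, adjusted p = 0.0552) and without SW480-labelled control 1 (-0.50, adjusted p = 0.0797). ATP8 was lost without DLD1 control 2 (-0.69, adjusted p = 0.221) and without SW480-labelled control 1 (-0.69, adjusted p = 0.0984). With the GC content and length trends removed, ND6 and ATP8 did not pass either, at -0.21 and -0.49 (adjusted p = 0.332 and 0.242). ATP8 and ND6 also had the opposite sign with lactate.

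By chromosome, the median log2 difference ran from -0.76 on X to 0.41 on chromosome 22, a range of 1.17, and of 1.30 without DLD1 control 2. The SDs of the library medians within each line, combined over both lines, came to 0.03 for X and 0.20 for chromosome 22. On X, 342 of 533 tested genes (64.2%) were higher in the SW480-labelled libraries and 60 (11.3%) in DLD1. Chromosome 5 followed with a median of -0.46, and 358 of 736 genes higher in the SW480-labelled libraries. At the other end, chromosome 11 had a median of 0.39 and 388 of 841 genes higher in DLD1. Restricted to genes of at least 10 CPM, the medians of X, 5, 11 and 22 were -0.72, -0.36, 0.39 and 0.48. Of 267 windows of 10 Mb with at least 20 tested genes, 39 had a median under -0.5 and 17 a median over 0.5. The lowest was the window from 80 to 90 Mb of chromosome 12, at -2.40 over 25 genes, and the highest the first 10 Mb of chromosome 11, at 0.86 over 108 genes. These are differences in RNA level, and the copy number of either line was not measured.

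**Figure D4:**
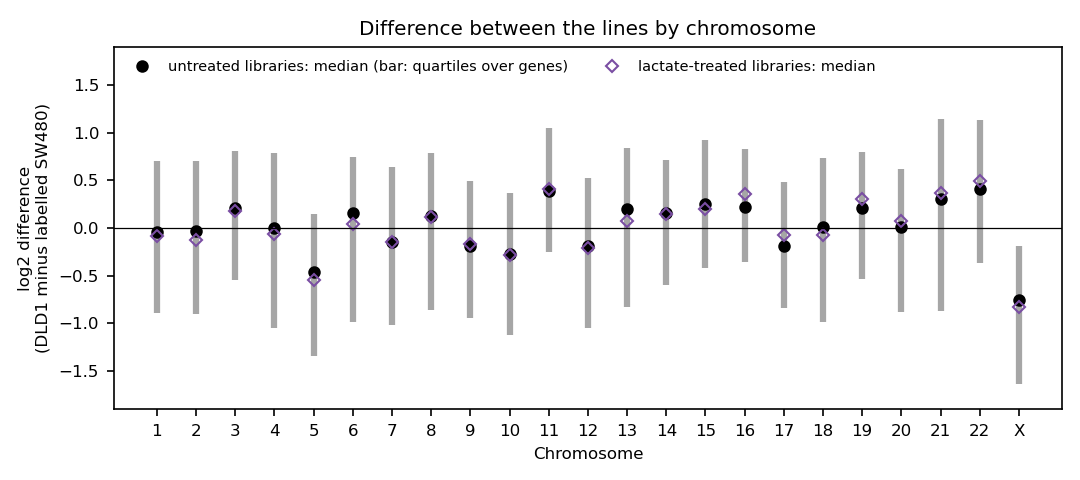
Median log2 difference (DLD1 minus the libraries labelled SW480) over the tested genes of each chromosome in the untreated libraries (black points, grey bars from the lower to the upper quartile over genes) and in the lactate-treated libraries (open diamonds). Chromosomes X and 5 have the lowest medians, at -0.76 and -0.46, and the diamonds lie close to the points.

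The same lines were compared once more in the 6 lactate-treated libraries, which share no library with the controls. There, 13110 of 16772 genes were called (78.2%). Of the 10642 genes called in the controls, 9621 were called in the same direction (90.4% of the control calls and 73.4% of the lactate calls) and 24 in the opposite one. Across the 15986 genes tested in both, the log2 differences had a Pearson's r of 0.97, where genes are not independent replicates and the lines are the same. EPCAM, CDH1 and VIM had log2 differences of 9.94, 9.24 and -10.58 in the lactate-treated libraries. Of the 204 genes named here and called in the controls, 201 kept their sign, and the other 3 were ATP8, ND6 and NDUFS1. All 22 epithelial adhesion genes and 35 of 35 mitosis genes were higher in DLD1 with lactate, and of 21 mesenchymal genes 16 were higher in the SW480-labelled libraries and 4 in DLD1, against 16 and 2 in the controls.

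**Figure D5:**
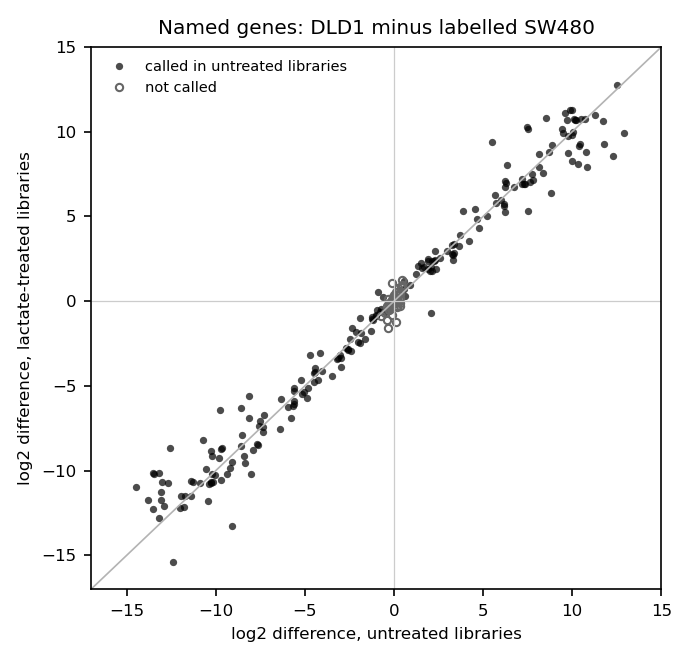
Log2 difference (DLD1 minus the libraries labelled SW480) of the 241 named and tested genes in the untreated libraries (x axis) and in the lactate-treated libraries (y axis); filled points were called in the untreated libraries. The points follow the diagonal, and many values beyond about 8 in either direction rest on very few reads in one line. The exact size of those depends on the small count added in the fit. FN1, at -9.07 with 231, 198 and 213 counts in the DLD1 libraries, is among the exceptions.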

How the data were processed

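The values are raw read counts per gene symbol, deposited by the authors as 1 table for 12 libraries, and every count column was used. HISAT2 and the GRCh38 genome are named in the submitters' processing notes; which counting tool, annotation and strand setting were used is not given in the sources used here. Libraries were grouped by their labels. Of 54261 symbols, 45971 matched a current RefSeq symbol, 1822 an older name, and 6468 were not matched.

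Counts of the 6 control libraries were filtered by expression, scaled by the TMM method and tested with edgeR 4.0.16 (R 4.3.3, robust quasi-likelihood test, Benjamini-Hochberg adjusted p under 0.05 over all tested genes). The SE is the log2 difference divided by the square root of the test statistic. Levels are CPM of the library total, given per library or as mean ± SD (n = 3). For a gene with no count in one line, the fold is against 3 counts per library; for 1 to 3 counts in a line, a ratio with its 95% exact interval is given. Intervals cover counting error only. The fit was tested on simulated data. The lactate-treated libraries were fitted separately. GC content and length came from GENCODE transcripts.

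Named genes are, per direction, the 12 called genes with the largest difference at 20 CPM or more without overlap, and the 5 genes highest in one line with no more than 3 counts per library in the other; for each of 47 lists, up to 4 called genes with the largest difference at 5 CPM or more and the uncalled gene with the highest level; and a fixed set of line and pathway genes. Other list members were chosen after their values were seen. The comparison and the lists were chosen with earlier results of these data known. Alternatives were DESeq2 1.42.0, limma 3.58.1 (voom), other scalings and filters, a replicate block, all 12 libraries in 1 model, removal of GC content and length trends, and each library left out. Y-linked genes and XIST were left out of the named genes. Some genes that the rule names are not reported here.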

Additional observations from a re-analysis of the deposited data

How the results depend on the processing

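The count of 10642 called genes stayed within 1.5 times under 15 alternatives, from 9417 to 13339, and DESeq2 gave 10728. With each library left out in turn it ran from 9417 to 12694, with 4466 to 6007 genes higher in DLD1 and 4946 to 6687 in the SW480-labelled libraries. Requiring at least 2-fold differences left 6800 genes, 2985 of them higher in DLD1. The replicate numbers do not pair the samples: deviations of same-numbered libraries had correlations of 0.05, -0.15 and -0.16, and the fit with the replicate block called 10054 genes. No scaling moved the median of all genes by more than 0.04 on the log2 scale. Members called over all lists numbered 748, and 700 to 827 with a library left out. Of 204 called genes that are named, 7 lost the call in some alternative, and 28 other named genes were called in some alternative only. Genes at no more than 3 counts in one line numbered 381, but 591 when 5 CPM in the other line was enough and 82 when 0 counts were required. The range of chromosome medians was 1.17, and from 1.15 to 1.30 with a library left out. Low counts limit the size of the largest fold changes, and the cause of the shifts without DLD1 control 2 was not tested.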
